A study of Danio rerio with 6 samples.

Results

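The 10 genes described here make, bind and break down retinoic acid. They were taken by name: the retinaldehyde dehydrogenase genes aldh1a2 and aldh1a3, the retinaldehyde reductase gene dhrs3a, the cellular retinoic acid binding protein genes crabp1a, crabp1b, crabp2a and crabp2b, and the cytochrome P450 genes cyp26a1, cyp26b1 and cyp26c1. All 10 had a value in each of the 6 libraries, out of 19364 genes with a value in at least 1 library, and all 10 passed the filter on low values, with 15475 genes tested in all. RNA was measured by RNA-seq in whole zebrafish embryos at 3 days post fertilisation. The 2 groups were csf1ra-/- embryos, from a line made with CRISPR/Cas9 that lacks a receptor for colony-stimulating factor 1, and wild-type embryos, with 3 libraries each. The labels speak of 30 embryos without saying whether per genotype or per library, and do not say whether the libraries came from separate clutches, so p-values measure the spread between these libraries, which may be partly technical.

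Retinoic acid is made from vitamin A (retinol) in 2 steps: retinol is oxidised to retinaldehyde, and retinaldehyde dehydrogenases oxidise that to retinoic acid. Reductases such as Dhrs3 turn retinaldehyde back into retinol, Crabp proteins bind retinoic acid inside the cell, and Cyp26 enzymes hydroxylate it so that it is cleared. Retinoic acid binds nuclear receptors that switch on target genes, and in the zebrafish embryo it patterns the hindbrain, pharyngeal arches, pectoral fins, eye and skeleton.

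Values are FPKM, fragments scaled by transcript length and library size, as the authors deposited them. Read totals are not in the files; the depth of a value is therefore unknown, and no counting interval can be given. A gene's level is the larger of its summed first-exon and summed last-exon values. Fold changes are csf1ra-/- over wild type on the log2(FPKM + 1) scale, where the change of a low gene comes out smaller than it is. They were tested with limma, with Benjamini-Hochberg adjustment over all 15475 genes and a threshold of 0.05. csf1ra was not listed in mutant replicates 1 and 2 and stood at 0.563 FPKM in mutant replicate 3, against 4.54, 4.07 and 3.72 FPKM in wild-type replicates 1, 2 and 3 (log2 fold change -2.14, SE 0.22, limma adjusted p = 0.00284). Each library listed 17291 to 17653 genes, with 8.97% to 10.8% of the summed FPKM in the 10 highest genes.

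crabp2b rose in the mutant and was the single member that passed the test. It averaged 15.8 ± 1.13 FPKM in csf1ra-/- embryos and 9.50 ± 0.319 FPKM in wild-type embryos (SD, n = 3 each), a ratio of 1.66. Of the other 9 members, 0 were called higher and 0 lower, and their log2 fold changes lay between -0.17 and 0.22. Not being called does not show that a gene was unchanged. In simulated data, 44.8% of higher-level genes given a log2 change of 0.58 were called. Genes of lower level were given no change, so this rate says nothing about members at low levels. Across all genes tested, limma called 2.42% in either direction, 1.21% higher and 1.2% lower in the mutant. The members' median log2 fold change was 0.021, against 0.016 over all genes tested. In 1 of the 10 members, again crabp2b, the genotypes did not overlap, against 22.3% of all genes tested.

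**Figure D1:**
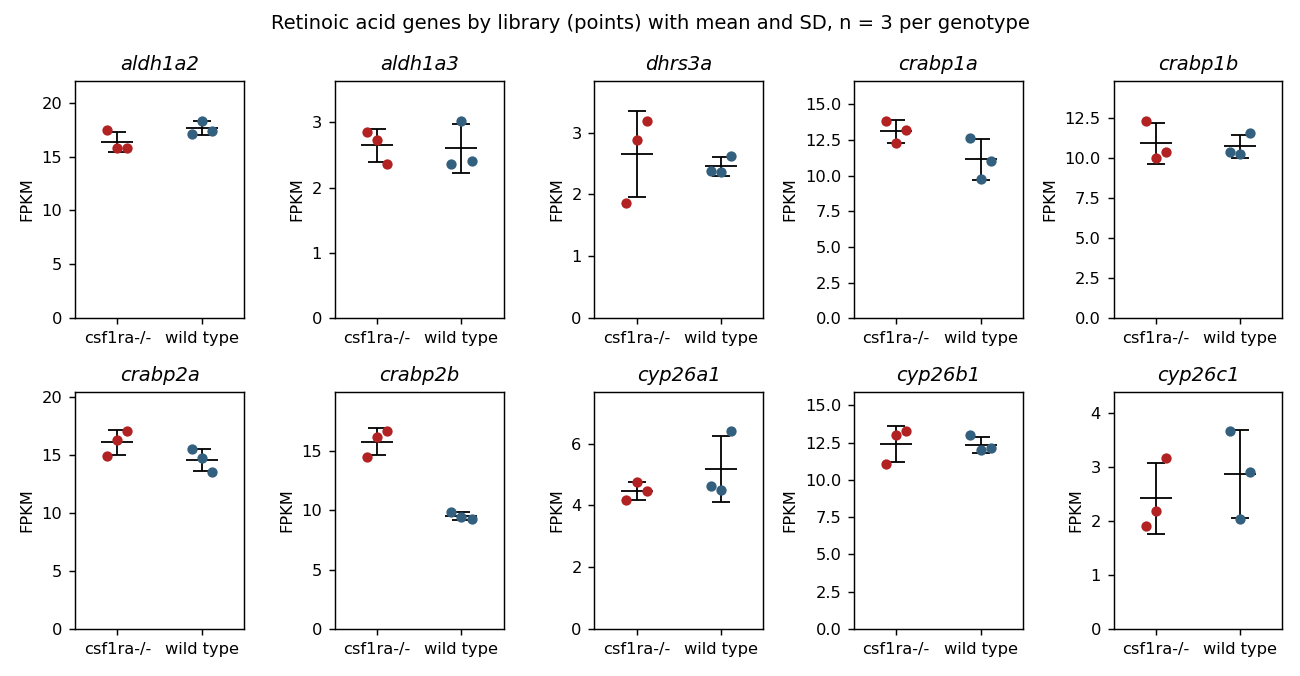
FPKM of each of the 10 genes in csf1ra-/- (red) and wild-type (blue) libraries. Points are single libraries, and the bars give the mean and SD of 3 libraries per genotype. The crabp2b points of the mutant lie between 14.5 and 16.7 FPKM, above the wild-type points between 9.23 and 9.85, and the genotypes overlap in the other 9 genes.

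The first role is synthesis. aldh1a2 encodes the main retinoic acid synthesising enzyme of the early embryo, and fish that lack it (the neckless mutant) do not form pectoral fins. aldh1a2 stood at 17.5, 15.8 and 15.8 FPKM in mutant replicates 1, 2 and 3, against 17.1, 18.3 and 17.4 FPKM in the wild-type libraries. The mutant library with the highest level lay within the wild-type range and the other mutant libraries lay below it. Its log2 fold change was -0.10 (SE 0.08, 95% interval -0.29 to 0.084, limma adjusted p = 0.592). aldh1a3, whose enzyme makes retinoic acid in the eye and the ear, had a level several times below that of aldh1a2 in both genotypes. It stood at 2.85, 2.73 and 2.37 FPKM in the mutant, against 2.36, 3.03 and 2.41 FPKM in wild type. The genotypes overlapped over nearly their whole range (log2 fold change 0.023, or -0.0064 with quantile normalisation, 95% interval -0.30 to 0.34, limma adjusted p = 0.955). aldh1a2 made up 85.3% to 87.0% of the summed level of both enzymes in the mutant libraries and 85.8% to 87.9% in the wild-type libraries.

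dhrs3a encodes a reductase that converts retinaldehyde to retinol and so draws substrate away from synthesis. It stood at 1.87, 2.89 and 3.19 FPKM in mutant replicates 1, 2 and 3, against 2.38, 2.36 and 2.63 FPKM in wild type. The mutant libraries lay on either side of the wild-type range, with a coefficient of variation of 26.2% in the mutant and 6.11% in wild type. The log2 fold change was 0.062 (SE 0.17, 95% interval -0.33 to 0.46, limma adjusted p = 0.897).

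The second role is binding. crabp2b stood at 14.5, 16.2 and 16.7 FPKM in mutant replicates 1, 2 and 3, against 9.85, 9.41 and 9.23 FPKM in wild-type replicates 1, 2 and 3. Every mutant library was above every wild-type library, and the gap between the nearest libraries was wider than the spread within either genotype. The log2 fold change was 0.67 (SE 0.09, 95% interval 0.47 to 0.88, limma adjusted p = 0.0104). By exact permutation over the 6 libraries (two-sided) p was 0.1, and a design of 3 against 3 can give no lower p. The limma call was lost without wild-type replicate 2 (log2 fold change 0.67, adjusted p = 0.0505) and without mutant replicate 2 (0.66, adjusted p = 0.0557). Where the filter on low values was applied again to the 5 libraries left, it was lost without wild-type replicate 3 as well (0.66, adjusted p = 0.0553). In the authors' deposited table the adjusted p of its transcript was 0.000466, the smallest value in that table, which many transcripts share.

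crabp2a, the paralogue of crabp2b, stood at 14.9, 16.3 and 17.0 FPKM in the mutant, against 15.5, 14.7 and 13.5 FPKM in wild type. Mutant replicates 2 and 3 were above all wild-type libraries and mutant replicate 1 was within them. Its log2 fold change was 0.13 (95% interval -0.073 to 0.34, limma adjusted p = 0.515). Within each library, crabp2b was at 0.973 to 0.993 times the FPKM of crabp2a in the mutant and at 0.637 to 0.681 times in wild type. The paralogues were thus at nearly equal levels in the mutant libraries, and crabp2b was the lower of the pair in the wild-type libraries.

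crabp1a and crabp1b are the paralogues of the other zebrafish Crabp subfamily. crabp1a stood at 13.9, 12.3 and 13.2 FPKM in the mutant, against 12.7, 9.77 and 11.0 FPKM in wild type. Its genotypes overlapped through mutant replicate 2 and wild-type replicate 1 (log2 fold change 0.22, SE 0.11, 95% interval -0.034 to 0.47, limma adjusted p = 0.384). crabp1b stood at 12.3, 9.99 and 10.4 FPKM in the mutant, against 10.4, 10.2 and 11.5 FPKM in wild type. Here mutant replicate 1 was the highest library and mutant replicate 2 the lowest (log2 fold change 0.019, 95% interval -0.22 to 0.26, limma adjusted p = 0.95).

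Summed over the 4 binding protein genes, the level was 55.6, 54.7 and 57.2 FPKM in mutant replicates 1, 2 and 3, against 48.3, 44.1 and 45.3 FPKM in wild-type replicates 1, 2 and 3. The sum was higher in all 3 mutant libraries than in any wild-type library. Without crabp2b it was 41.1, 38.5 and 40.6 FPKM in the mutant, against 38.5, 34.7 and 36.1 FPKM in wild type, with mutant replicate 2 and wild-type replicate 1 nearly equal. crabp2b made up 26.1% to 29.6% of the summed level in the mutant libraries and 20.4% to 21.3% in the wild-type libraries. These sums and shares are descriptions of the same values and were not tested.

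**Figure D2:**
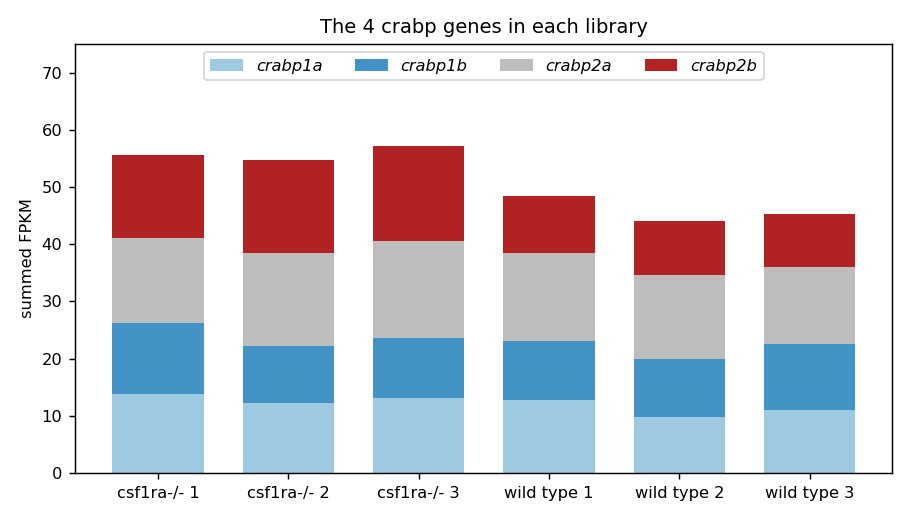
Stacked FPKM of crabp1a, crabp1b, crabp2a and crabp2b in each library, with the 3 csf1ra-/- libraries at the left and the 3 wild-type libraries at the right. The crabp2b part of the bar is 14.5 to 16.7 FPKM in the mutant and 9.23 to 9.85 FPKM in wild type.

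The third role is breakdown. cyp26b1, known from zebrafish mutants with excess ossification of the spine, had the highest level of the 3 breakdown genes. It stood at 11.0, 13.0 and 13.3 FPKM in the mutant, against 13.0, 11.98 and 12.1 FPKM in wild type. Mutant replicate 1 was below and mutant replicate 3 above the wild-type range, and the log2 fold change was 0.0027 (SE 0.1, 95% interval -0.22 to 0.23, limma adjusted p = 0.993). That sign was turned by median-ratio rescaling of the libraries (-0.0096).

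cyp26a1 encodes the enzyme that is missing in the zebrafish giraffe mutant and is itself switched on by retinoic acid. It stood at 4.16, 4.74 and 4.47 FPKM in the mutant, against 4.63, 4.50 and 6.40 FPKM in wild type. Wild-type replicate 3 was far above the other 5 libraries, which lay close together (log2 fold change -0.17, SE 0.14, 95% interval -0.50 to 0.16, limma adjusted p = 0.624). Without wild-type replicate 3 the log2 fold change was -0.031.

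cyp26c1, which encodes another enzyme of the family, had the lowest level in the mutant. It stood at 1.91, 2.18 and 3.16 FPKM in the mutant, against 3.66, 2.04 and 2.91 FPKM in wild type. The libraries of either genotype were spread widely, with coefficients of variation of 27.3% in the mutant and 28.2% in wild type (log2 fold change -0.17, SE 0.21, 95% interval -0.66 to 0.31, limma adjusted p = 0.735). A second gene ID with the symbol cyp26c1 in the deposited table had no value in any library, and the values here belong to ENSDARG00000056029.

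**Figure D3:**
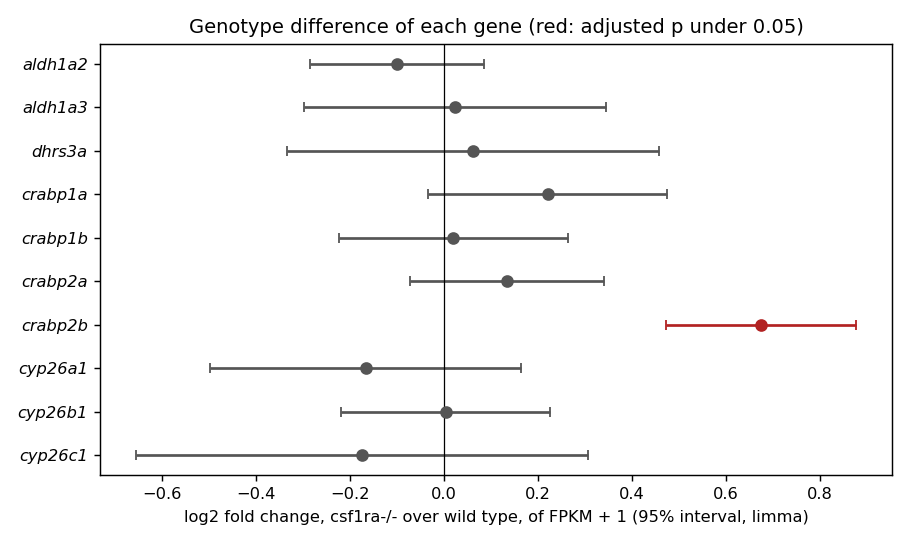
Log2 fold change of each gene, csf1ra-/- over wild type, on the log2(FPKM + 1) scale, with the 95% interval from limma. crabp2b lies at 0.67 with an interval of 0.47 to 0.88, and the intervals of the other 9 genes include 0.

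Summed levels of breakdown and of synthesis genes were close to each other in both genotypes. The breakdown sum was 17.1, 19.9 and 20.9 FPKM in the mutant, against 21.3, 18.5 and 21.4 FPKM in wild type. The synthesis sum was 20.3, 18.5 and 18.2 FPKM in the mutant, against 19.4, 21.4 and 19.8 FPKM in wild type. Breakdown over synthesis was 1.02 ± 0.16 in the mutant and 1.01 ± 0.128 in wild type (SD, n = 3 each), and the libraries of both genotypes overlapped.

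Since FPKM are scaled by transcript length, the members can be ordered by level. In the mutant the order was aldh1a2, crabp2a, crabp2b, crabp1a, cyp26b1, crabp1b, cyp26a1, dhrs3a, aldh1a3 and cyp26c1, with means between 16.4 and 2.42 FPKM. The ranges of neighbours overlapped except between crabp2b and crabp1a, between crabp1b and cyp26a1 and between cyp26a1 and dhrs3a. In wild type the order was aldh1a2, crabp2a, cyp26b1, crabp1a, crabp1b, crabp2b, cyp26a1, cyp26c1, aldh1a3 and dhrs3a, with means between 17.6 and 2.45 FPKM. There the ranges of neighbours overlapped between cyp26b1 and crabp1a, between crabp1a and crabp1b and among the lowest 3 genes. crabp2b had rank 3 in the mutant order and rank 6 in the wild-type order. Among all tested genes, the members' mean levels over the 6 libraries had percentiles between 21.8 (dhrs3a) and 80.2 (aldh1a2).

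The authors' deposited table gives its own test of each transcript, with no direction used here because the names of its value columns do not say which genotype they hold. In it 5 of the 10 members were significant at an adjusted p under 0.05, against 30.1% of the 18800 genes it tested. Beside crabp2b these were aldh1a2 (adjusted p = 0.000466), cyp26a1 (0.011), cyp26c1 (0.0369) and crabp2a (0.0399) in the authors' deposited table. The limma test over libraries called 1 of these 5, and in the other 4 the mutant and wild-type libraries overlapped.

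The transcript structures of the members were simple in these files. Every member had 1 first-exon and 1 last-exon event, and both had the same FPKM in each library for 8 of the 10 genes. In cyp26b1 they differed by up to 1.76% of the larger value, and in cyp26a1 by 13.4% in mutant replicate 2 and not in the other libraries. An alternative exon-end event was listed for aldh1a2 and for crabp2a, each at the same FPKM as its first exon. crabp1a had a skipped exon (chromosome 25, 6202908 to 6202988, GRCz10) whose included form was listed only in wild-type replicate 3, at 1.12 FPKM beside 9.87 FPKM for the skipped form. No retained intron was listed for any member.

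The genes of most similar pattern were sought for crabp2b. Among 8871 other genes listed in all 6 libraries with a mean of at least 5 FPKM, the 3 highest Pearson correlations of log2 level over the 6 libraries were those of per1b (r = 0.999), agr1 (0.991) and fbp1a (0.989). per1b is a circadian clock gene, agr1 encodes a protein disulfide isomerase family member, and fbp1a encodes a gluconeogenic fructose bisphosphatase. per1b stood at 18.4, 19.9 and 21.0 FPKM in the mutant, against 12.4, 12.1 and 11.9 FPKM in wild type. All 3 genes were called higher in the mutant, so these correlations over 6 libraries share the genotype difference itself and describe no more than that likeness.

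crabp2b lies on chromosome 19 (GRCz10, 9054117 to 9061113, plus strand). Of 26 other tested genes whose midpoints lie within 1 Mb of it, 3 were called, which is 11.5%, against 2.42% of all genes and 5.56% of the 629 tested genes of chromosome 19. All 3 rose in the mutant. rps27.1, a ribosomal protein gene, averaged 844 ± 48.5 FPKM in the mutant and 620 ± 8.60 FPKM in wild type (SD, n = 3 each). ndufv1, a subunit gene of respiratory complex I, averaged 142 ± 6.35 FPKM in the mutant and 106 ± 1.06 FPKM in wild type. slc2a3a, a glucose transporter gene, averaged 9.93 ± 1.27 FPKM in the mutant and 6.05 ± 0.473 FPKM in wild type. In the authors' deposited table the adjusted p was 0.000466 for rps27.1 and for ndufv1, but 0.432 for slc2a3a. The nearest tested neighbours on either side did not pass: ciarta had a log2 fold change of 0.29 (limma adjusted p = 0.127) and scamp3 one of -0.023 (limma adjusted p = 0.916). Even so, ciarta was without overlap, at 34.5 to 39.2 FPKM in the mutant and 28.3 to 30.4 FPKM in wild type, while the genotypes overlapped in scamp3. In the authors' deposited table the adjusted p was 0.000466 for ciarta and 0.0496 for scamp3.

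Within 5 Mb, 16 of 152 other genes were called (10.5%), 7 higher and 9 lower in the mutant, and all 9 lower ones lay beyond 1 Mb. Some called genes were listed in a single genotype. lrp12 stood at 11.1 to 11.5 FPKM in the mutant and was not listed, so set to 0, in wild type. The reverse held for si:ch73-367f21.4 (0 in the mutant, 5.06 to 8.01 FPKM in wild type) and tuft1b (0 against 2.11 to 3.81 FPKM). In the authors' deposited table the adjusted p was 0.0375 for lrp12 and 0.000466 for si:ch73-367f21.4 and tuft1b. Listing also varied within a genotype: hax1, not called, was at 14.4 FPKM in mutant replicate 2 and unlisted in mutant replicates 1 and 3. Within 1 Mb, called or not, 20 of the 26 genes had a log2 fold change above 0, with a median of 0.14. Within 5 Mb 75 of the 152 did, with a median of -0.0034, against 0.016 over all genes tested. Leaving out mutant replicate 3 gave 2 called genes within 1 Mb, and leaving out any other single library gave 0. Over the alternatives that kept all 6 libraries the count within 1 Mb was 0 to 4, with 0 in limma without trend and robust options. Over the same alternatives the count within 5 Mb was 5 to 17. Within 5 Mb the count was 10 without mutant replicate 1, 8 without mutant replicate 2 and 15 without mutant replicate 3. It was 7 when either of wild-type replicates 1 and 2 was left out and 9 when wild-type replicate 3 was. Whether the position of crabp2b has a part in its difference was not tested.

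**Figure D4:**
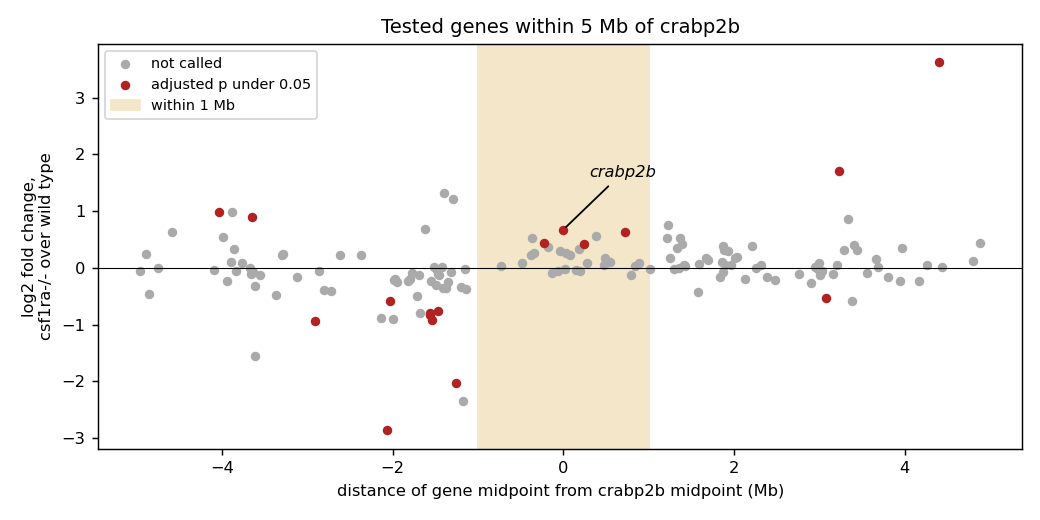
Log2 fold change, csf1ra-/- over wild type, of crabp2b and the 152 other tested genes within 5 Mb of it, by distance from it in Mb. Called genes are red and the shaded band marks 1 Mb on either side. crabp2b and 3 other genes in the band were called, all higher in the mutant, and the 9 called genes that were lower lie outside it with the other higher ones.

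The other members lie elsewhere. crabp1b, aldh1a2, aldh1a3 and cyp26b1 are on chromosome 7, where 1.36% of tested genes were called, and crabp2a, cyp26a1, cyp26c1 and dhrs3a are on chromosomes 16, 12, 17 and 23. crabp1a lies on chromosome 25 (6179483 to 6209976), where 5.68% of tested genes were called. Of 140 other genes within 5 Mb of crabp1a, 13 were called (9.29%), all lower in the mutant, while crabp1a itself was not called. Near cyp26a1, also not called, 10% of 20 other genes within 1 Mb were called, 1 higher and 1 lower. Within 5 Mb of it 5.88% of 119 were called, against 3.3% of tested genes on chromosome 12.

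The rest of the pathway was read from 7 lists of genes, of which 74 had a level that could be tested. Of these 74 genes, limma called 0 at an adjusted p under 0.05, and 11 had an unadjusted p under 0.05, 6 of them higher and 5 lower in the mutant. Over all genes tested, limma called 2.42%, and 2468 of 15475 had an unadjusted p under 0.05. At the share called, lists of this length would hold few called genes or none. The median log2 fold change of the 74 genes was 0.0014. Of the 74 genes, 6 were without overlap and higher in the mutant and 7 without overlap and lower, a smaller share than the 22.3% of all genes tested. The authors' deposited table tested 90 genes of these lists and had 31 of them significant, a share near the 30.1% of all genes in it.

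Of 14 tested retinol and retinaldehyde dehydrogenase genes, 0 were called (median log2 fold change 0.010). rdh10a, an enzyme gene of the first oxidation step, stood at 26.6, 29.5 and 27.6 FPKM in the mutant, against 31.6, 30.0 and 27.6 FPKM in wild type. The smallest p was that of aldh8a1, which acts on retinaldehyde of the 9-cis form in mammals. It averaged 9.15 ± 1.19 FPKM in the mutant and 6.31 ± 1.08 FPKM in wild type (log2 fold change 0.48, limma adjusted p = 0.151). dhrs9 had a log2 fold change of 0.47 and rdh8a, a photoreceptor gene, one of -0.43 (limma adjusted p = 0.222 and 0.24). In aldh8a1, dhrs9 and rdh8a, 3 of the 14, the genotypes did not overlap, a share near that of all genes tested (22.3%). rdh1 had a log2 fold change of 0.31 (limma adjusted p = 0.482).

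Of 10 tested genes of retinol carriers and uptake, 0 were called (median log2 fold change 0.23). rbp2b, a cellular retinol binding protein gene, stood at 21.8, 20.7 and 11.2 FPKM in mutant replicates 1, 2 and 3, against 11.7, 9.97 and 9.76 FPKM in wild type. Mutant replicate 3 lay inside the range of wild type. Without that library rbp2b was called (log2 fold change 0.96, limma adjusted p = 0.00852), as was ttr, a plasma carrier gene (1.48, limma adjusted p = 0.0426). rbp2a averaged 76.0 ± 19.5 FPKM in the mutant and 55.1 ± 7.83 FPKM in wild type, again with mutant replicate 3 within the wild-type range (limma adjusted p = 0.343). rbp4l had a log2 fold change of 0.30 (limma adjusted p = 0.463).

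Of 11 tested genes of retinoid storage and the visual cycle, 0 were called (median log2 fold change 0.033). rpe65a, the isomerase gene of the retinal pigment epithelium, stood at 3.86, 4.02 and 3.44 FPKM in the mutant, against 6.33, 10.5 and 5.18 FPKM in wild type. The genotypes did not overlap, and wild-type replicate 2 was the highest library (log2 fold change -0.75, limma adjusted p = 0.148). dgat1a, an acyltransferase gene, had a log2 fold change of 0.69 and rgrb, an opsin gene of the visual cycle, one of 0.58 (limma adjusted p = 0.199 and 0.273). lrata, whose enzyme esterifies retinol for storage, had 0.26 (limma adjusted p = 0.363). In dgat1a, rgrb and lrata too the genotypes did not overlap, with the mutant libraries higher. Of the 11 genes, 3 were thus without overlap and higher and 1 without overlap and lower, against 22.3% of all genes tested. Without mutant replicate 3, dgat1a and irbp, a retinoid carrier gene of the photoreceptor space, were called higher (0.95 and 0.92, limma adjusted p = 0.0246 and 0.0489). Of the 5 carotenoid cleavage genes only bco1, which makes retinaldehyde from beta-carotene, passed the filter on low values. It stood at 8.01, 8.38 and 4.50 FPKM in the mutant, against 9.37, 10.05 and 8.33 FPKM in wild type (log2 fold change -0.40, limma adjusted p = 0.398).

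The 8 tested receptor genes were the retinoic acid receptor genes raraa, rarab and rarga, and the retinoid X receptor genes rxraa, rxrba, rxrbb, rxrga and rxrgb. Of these 8 genes, 0 were called (median log2 fold change -0.094). rxrba stood at 20.5, 23.1 and 24.0 FPKM in the mutant, against 39.5, 33.2 and 25.3 FPKM in wild type. The genotypes did not overlap, but wild-type replicate 3 lay near the mutant libraries (log2 fold change -0.50, SE 0.15, limma adjusted p = 0.173). On chromosome 19 the midpoint of rxrba lies at -1.72 Mb from that of crabp2b, so rxrba is also among the 152 neighbours described above. rarab, a receptor gene that is itself induced by retinoic acid, averaged 16.2 ± 0.359 FPKM in the mutant and 17.5 ± 0.778 FPKM in wild type, also without overlap (limma adjusted p = 0.534). These were 2 of the 8 receptor genes, a share near the 22.3% of all genes tested. rxrga and rxraa had log2 fold changes of -0.49 and 0.12 (limma adjusted p = 0.363 and 0.587). Of 7 tested genes in the list of receptor cofactors, which also holds the nuclear receptor gene ppardb, 0 were called (median -0.026). The smallest p was that of the corepressor gene ncor1 (log2 fold change -0.18, limma adjusted p = 0.397), and nrip1a, ncoa1 and ncoa2 had 0.23, -0.12 and -0.072 (limma adjusted p = 0.648, 0.717 and 0.797).

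Of 23 tested genes known to respond to retinoic acid in the embryo, most of them Hox and Meis genes, 0 were called (median log2 fold change -0.038). The anterior Hox gene hoxa1a stood at 3.98, 4.19 and 5.21 FPKM in the mutant, against 6.35, 6.60 and 10.4 FPKM in wild type (log2 fold change -0.66, SE 0.19, limma adjusted p = 0.136). hoxb1b stood at 4.13, 5.08 and 5.62 FPKM in the mutant, against 7.79, 8.69 and 6.13 FPKM in wild type (-0.52, SE 0.15, limma adjusted p = 0.151). In both genes every mutant library was below every wild-type library. hoxb5b, a retinoic acid target that acts in pectoral fin and heart field, averaged 16.4 ± 1.85 FPKM in the mutant and 13.1 ± 2.08 FPKM in wild type (0.31, limma adjusted p = 0.313), and there every mutant library was above every wild-type library. These 3 of the 23 genes were the ones without overlap, against 22.3% of all genes tested. meis2a had a log2 fold change of -0.22 (limma adjusted p = 0.333). The 95% intervals were -1.09 to -0.23 for hoxa1a, -0.87 to -0.17 for hoxb1b and 3.5e-05 to 0.62 for hoxb5b, before any adjustment. In the authors' deposited table the adjusted p was 0.775 for hoxa1a, 0.542 for hoxb1b and 0.000466 for hoxb5b.

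**Figure D5:**
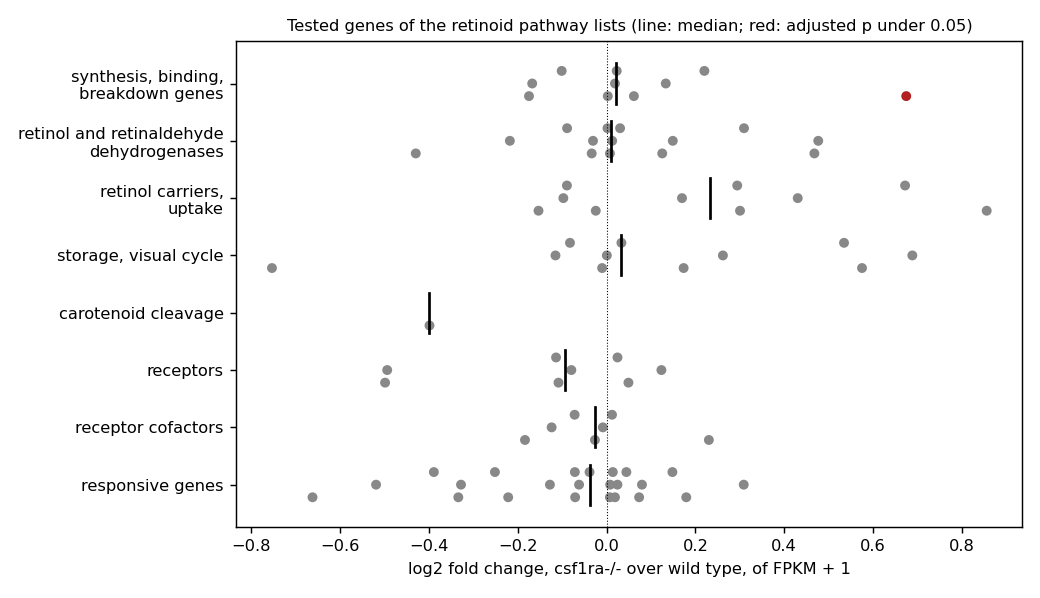
Log2 fold change, csf1ra-/- over wild type, of each tested gene in the 10 members and in 7 other retinoid lists, with a line at each median. crabp2b at 0.67 is the single called gene, and the list medians lie between -0.40 (carotenoid cleavage, 1 gene) and 0.23 (carriers and uptake).

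In whole embryos, fewer cells of a type and less RNA per cell cannot be told apart. Markers of cell types were therefore read beside the difference in crabp2b. Of 9 xanthophore markers, 6 were called lower and 0 higher (gch2, aox5, slc2a11b, slc2a15a, slc2a15b and csf1ra), against 1.2% of all genes tested called lower. Among these, csf1ra is the mutated gene itself, so its call says nothing of xanthophores. The other 3 markers, xdh, pax7a and pax7b, were not called (limma adjusted p = 0.827, 0.939 and 0.292). The summed level of the 9, csf1ra included, was 27.5 to 38.3 FPKM in the mutant, against 151 to 169 FPKM in wild type. Most of the wild-type sum was that of gch2, which averaged 13.2 FPKM in the mutant and 105 FPKM in wild type. Of 10 tested macrophage markers, 3 were called lower (spi1a, lgals3bpb and ccl34b.1) and 0 higher, against the same 1.2%. The other 7 were not called: csf1rb, havcr1, coro1a, apoeb, lcp1, mfap4 and spi1b (limma adjusted p = 0.0793, 0.254, 0.46, 0.483, 0.707, 0.825 and 0.982). Log2 fold changes of the 10 lay between -2.2 and -0.012. The summed level of the macrophage list was 325 to 346 FPKM in the mutant, against 372 to 392 FPKM in wild type, most of it from apoeb. The macrophage marker mpeg1.1 had no level here, though the authors' deposited table tested it (adjusted p = 0.000466, direction not used). spi1a was not listed in mutant replicates 2 and 3. The part of the xanthophore and macrophage markers in the crabp2b difference was not tested.

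Of 5 tested neural and glial markers (elavl3, elavl4, gfap, fabp7a and nes), 9 pharyngeal arch and fin markers, 10 cartilage and bone markers, 6 retinal pigment epithelium markers and 7 liver markers, 0 were called in each list. Over all genes tested 2.42% were called, a share at which lists this short would hold few called genes or none. The hindbrain markers egr2b and mafba had no level here, so limma tested no hindbrain marker. In the authors' deposited table their adjusted p was 0.157 and 0.0118, direction not used. The summed neural level, mostly that of fabp7a, was 1014 to 1071 FPKM in the mutant, against 921 to 999 FPKM in wild type. The summed cartilage and bone level was 1348 to 1605 FPKM in the mutant, against 1836 to 2092 FPKM in wild type. In mean FPKM, mutant against wild type, the largest differences were in col1a1a (409 against 652.5), col2a1a (396 against 519) and col1a2 (196 against 287). Higher on average in the mutant were col10a1a (87.2 against 68.1), matn1 (226 against 213) and acana (13.0 against 12.9). Of the 10 genes, 4 were without overlap and lower and 1 without overlap and higher, against 22.3% of all genes tested. The summed levels of the other 3 lists overlapped between the genotypes (546 to 566 against 539 to 598 FPKM for arch and fin, 78.7 to 92.9 against 82.2 to 107 FPKM for pigment epithelium, and 3454 to 4246 against 3364 to 3766 FPKM for liver, mutant against wild type). Most of the liver sum was that of apoa2. The liver marker fabp10a stood at 66.8, 63.0 and 33.3 FPKM in the mutant, against 20.4, 21.9 and 29.2 FPKM in wild type. Its log2 fold change was 1.11 (limma adjusted p = 0.0996), against a median of 0.15 for the 7 liver markers. It was the 1 liver marker of 7 without overlap, against 22.3% of all genes tested. The part of the neural, cartilage, bone and fabp10a levels in the crabp2b difference was not tested.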

How the data were processed

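The deposited FPKM values, 1 table per library, were made by the authors for transcript-structure events (first exons, last exons, skipped exons and others), and events at 0 are not listed, per the file headers and values. The submitters' processing notes name Cufflinks 2.2.1, HISAT2 2.0.1, SAMtools 0.1.18, Trimmomatic 0.30, HTSeq 0.6.1, DESeq and build GRCz10, without roles. For the tool behind the FPKM and for depth, no statement is given in the sources used here. The authors' deposited table supplied p-values and adjusted p-values per transcript and gene symbols (19363 of 19364 IDs); its 2 value columns were not used.

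Unlisted genes were set to 0 FPKM in that library. limma 3.58.1 (R 4.3.3; trend and robust options, genotype only, two-sided) was run on log2(FPKM + 1), keeping genes that reached 1 FPKM in 3 or more libraries. Other steps used Python 3.11.15, pandas 2.3.3, SciPy 1.17.1 and matplotlib 3.10.9. The procedure was tested on simulated data, with changes added to genes of higher level only. It called 44.8%, 83.6% and 93.9% of genes given log2 changes of 0.58, 1 and 2. Count models were not run, since FPKM are not counts.

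The members, lists and tests were chosen with earlier results of these data known. Named were all members, csf1ra, the called genes and up to 4 of smallest p in each list (in marker lists, the called ones alone), and the 3 genes most like each called member. Neighbours of crabp2b, rdh10a, irbp, fabp7a and the other neural markers, apoeb and mpeg1.1 were chosen after their values were seen. So were the other marker genes that are named without being called. Alternatives tried were 2 normalisations, 2 filters, limma without trend and robust options, 2 pseudocounts, a replicate block, gene levels from either end of the transcript by itself, restriction to genes with a value in every library, and leaving out each library. When a library was left out, genes passing the filter over all 6 libraries were tested. That choice was made after the counts from filtering again over the 5 left (at least 1 FPKM in 3) had been seen, and both are given. The counts near crabp2b were also added after seeing the data.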

Additional observations from a re-analysis of the deposited data

How the results depend on the processing

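Over the 17 alternatives, and 6 added after seeing the data that filtered genes again after leaving out a library, the crabp2b log2 fold change stayed above 0. It was 0.64 to 0.73 when leaving out 1 library (limma adjusted p 0.0218 to 0.0665) and 0.66 to 0.72 otherwise. Replicate numbers did not pair the libraries (correlations of same-numbered deviations -0.027, 0.0027 and 0.0064). With the replicate block it was 0.67 (adjusted p = 0.0669) and members called higher were 0. Members called higher were 0 to 1 when leaving out 1 library, and members called lower 0 throughout. Genes called higher numbered 188, against 125 with a filter of 5 FPKM, 53 with the replicate block, 114 with genes listed in every library and, leaving out 1 library, 53 to 266 (20 to 218 with genes filtered again). Genes called lower numbered 186, against 122 without trend and robust options, 62 with the block, 118 with genes listed in every library and, leaving out 1 library, 65 to 184 (33 to 179 with genes filtered again). The causes were not tested. With genes filtered again, the count within 5 Mb of crabp2b was 3 to 15. With the replicate block it was 5, and that within 1 Mb 0. Leaving out 1 library gave 0 to 2 called genes in the carrier list and in the storage list, and 0 in the other 5 lists; the remaining settings called 0 in all 7.

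Members near 0 changed sign: cyp26b1 with median-ratio rescaling (-0.0096), aldh1a3 with quantile normalisation (-0.0064), and, when leaving out 1 library, crabp1b (-0.065 to 0.073), cyp26b1 (-0.043 to 0.080), aldh1a3 (-0.024 to 0.11) and dhrs3a (-0.048 to 0.23). csf1ra stayed called wherever it was tested (-4.48 to -2.03). It was not tested with the 5 FPKM filter, with genes listed in every library, or in 3 of the 6 settings that filtered again, and aldh1a3, dhrs3a, cyp26a1 and cyp26c1 were not tested with the 5 FPKM filter. What depth limits cannot be stated without read totals.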
